A study of Saccharomyces cerevisiae with 6 samples.

Results

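The genes described here build, remodel and make up the cell wall of the yeast Saccharomyces cerevisiae. They were chosen by systematic name from the annotation deposited with the series, and all 44 were measured among 5657 genes. An enzyme class of 22 genes holds the glucan and chitin synthases, the GAS and CRH transferases, the KRE genes and the glucanases. A structural class of 12 genes holds the PIR proteins and the GPI-anchored wall proteins. The other 10 genes are the SUN family, the wall sensors SLG1 (also called WSC1) and MID2, and the surface protein genes SVS1, PRM5, PUN1 and NCW2. Each gene was read by 1 probe set, and 0 of these carried the suffix that marks possible shared signal with other genes.

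The arrays came from the wild-type strain CEN.PK 113-7D, grown with shaking and air in baffled flasks at 30 °C. BSA, usually short for bovine serum albumin, was present in 3 cultures, and 3 control cultures had none; its amount is not given in the sources used here. A sampling time of 48 h is given in the protocol, while the design text speaks of the early glucose phase, so the growth phase is not settled by the labels. The labels call the arrays of a group biological replicates, and the comparison asks how transcript levels differed when BSA was present. A lower level in these bulk cultures may mean fewer cells of one kind or less RNA per cell, which cannot be told apart.

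The yeast wall is a mesh of beta-glucan chains with a little chitin, to which mannoproteins are bound. Synthases in the plasma membrane extrude glucan and chitin, transferases outside the cell elongate, branch and cross-link the chains, and glucanases trim them. Mannoproteins are tied to this mesh through the remnant of a GPI anchor or, in PIR proteins, directly to glucan. Sensors that span the plasma membrane report wall stress to the small GTPase Rho1 and to a kinase cascade that ends in Slt2, which acts on transcription factors such as Rlm1.

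Within-group distances between arrays were smaller than those across groups. Over all genes, the SD of the log2 difference between arrays was 0.0567 to 0.198 within groups and 0.625 to 0.732 between them. Control replicates 2 and 3 were the closest pair, at 0.0567, against 0.117 to 0.198 for the other pairs within groups. Whether these 2 arrays came from separate cultures was not tested. If they did not, the SEs and p-values given here would be too small. The count of wall genes called was also taken with these 2 averaged into 1 sample. Array medians lay between 7.56 and 7.62 (log2), and precision is limited by how many arrays there are. The alpha-factor genes MF(ALPHA)1 and MF(ALPHA)2 and all 9 genes of a spore wall list lay below the first quartile of every array. The a-factor genes MFA1 and MFA2 lay above the median. By mean signal over the arrays, the other alpha-cell genes, STE3 and SAG1, stood at percentiles 14.6 and 23 of all genes. Among further a-cell genes, STE2, STE6 and AGA2 stood at percentiles 56.4, 56.6 and 59.3, and BAR1 at 34.4, below the median. Of 6 genes known from a cells, 3 were called lower (STE6, BAR1 and AGA2), against 47.1% of all genes, and 0 higher, against 28.3%. At a raw limma p under 0.05 the higher count stayed at 0, and the labels give no mating type.

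With BSA, transcripts of cell wall genes were mostly lower in the deposited values. In limma with a Benjamini-Hochberg adjusted p under 0.05 over all genes, 26 of the 44 fell and 8 rose, while 10 did not pass. The threshold was passed by 75.4% of all genes, 47.1% lower and 28.3% higher, so 34 called wall genes (77.3%) is a share near that background. Their median log2 fold change was -0.38, against -0.13 for all genes, and thus -0.25 relative to all genes. If the means of control replicates 2 and 3 stand for a single sample, 26 fell and 7 rose.

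Some of the decreases were large. Of the 44 genes, 9 (20.5%) were called and at least 2-fold lower, against 1.96% of all genes. The list was made with earlier results of these data known, the fall of SVS1, PRM5 and PUN1 among them, so the share is a description and no independent evidence. Without these 3 it was 6 of 41 (14.6%), and without NCW2 as well 5 of 40 (12.5%). Rises of at least 2-fold were seen in 2 genes, CWP1 and GAS4, against 7.04% of all genes. Control and BSA values were fully separate in 34 of the 44 wall genes (77.3%), against 79.5% of all genes. They were higher with BSA in 8 of the 44 (18.2%) and lower in 26 (59.1%), against 29.6% and 49.9% of all genes.

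The enzyme and structural classes had similar counts. Among the 22 enzyme genes 14 fell (63.6%) and 4 rose (18.2%), against 47.1% and 28.3% of all genes. Their median log2 fold change was -0.38, against -0.13 for all genes. For the 12 structural genes these counts were 7 (58.3%) and 2 (16.7%), and the median was -0.36. The range of log2 fold changes ran from -1.50 to 1.27 in the enzyme class and from -1.05 to 2.13 in the structural class. With the SUN genes counted as enzymes and SVS1 and NCW2 as structural, 15 of 26 enzyme genes fell and 5 rose, and 9 of 14 structural genes fell and 2 rose. When the median deviation of each array from the mean array was set to 0, 10 enzyme genes fell and 5 rose, and 6 structural genes fell and 2 rose. In that scaling 50.2% of all called genes were higher, against 37.6% in the deposited values. Of called wall genes 30% were higher in it, against 23.5% in the deposited values.

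**Figure D1:**
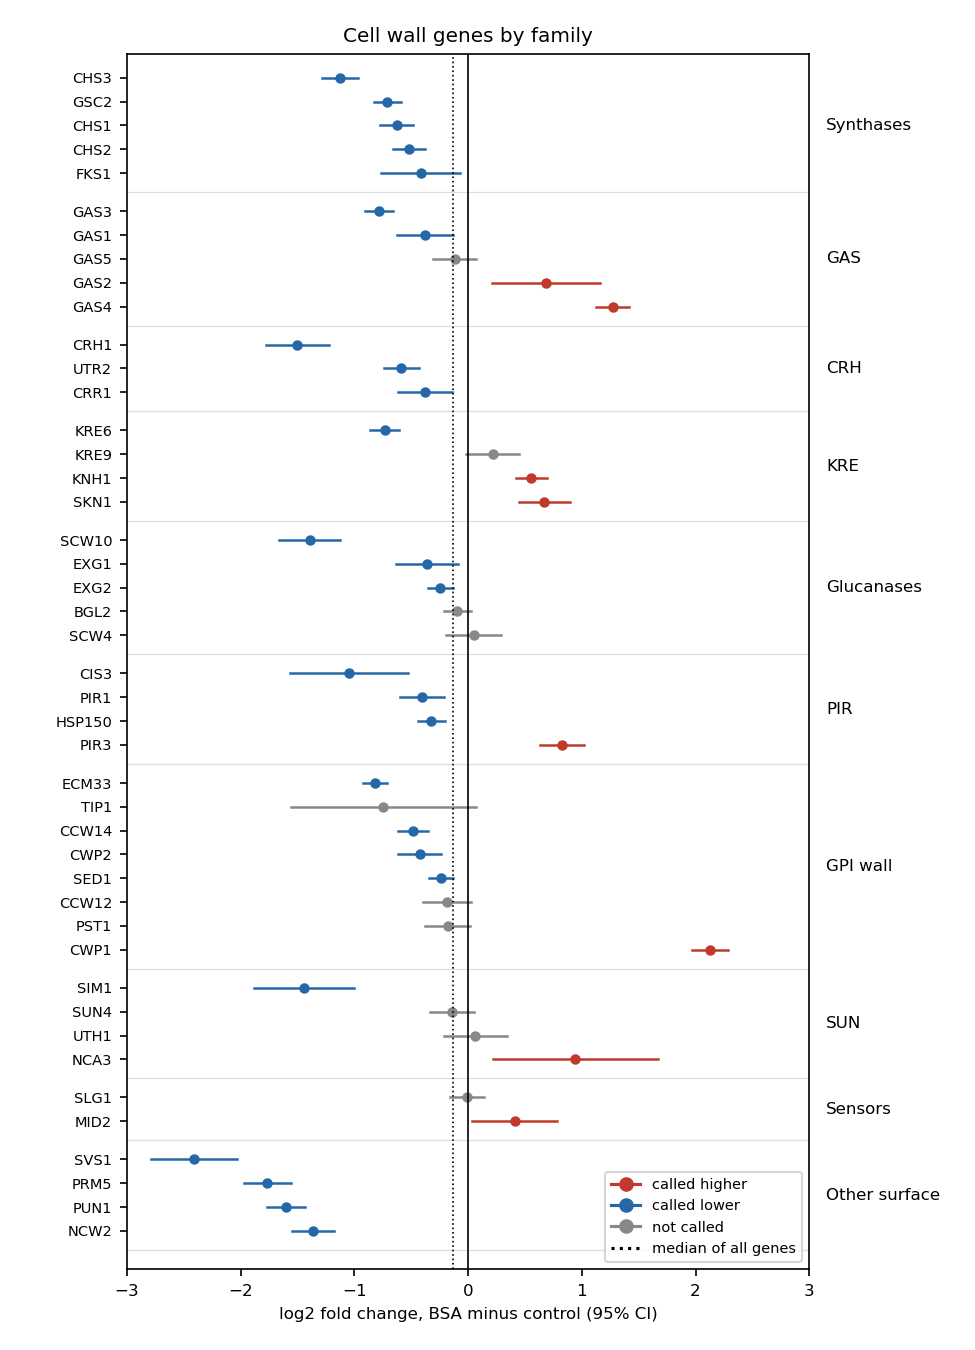
Log2 fold change of the 44 cell wall genes, BSA minus control, with 95% confidence intervals from limma, sorted by family (3 arrays per group). Colours mark genes called higher, called lower and not called at an adjusted p of 0.05, and the dotted line is the median of all genes at -0.13. All 5 synthases and all 4 genes of the last family lie to the left of 0, while the GAS, KRE, PIR, GPI and SUN families hold genes on both sides.

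All 5 glucan and chitin synthase genes fell, against 47.1% of all genes. CHS3 (YBR023C), which makes most of the chitin in the wall, read 9.40, 9.22 and 9.29 (log2) in the controls and 8.08, 8.24 and 8.21 with BSA. Its groups were well apart, and the level fell by 1.13 ± 0.07 on the log2 scale (SE), or 2.18-fold (limma adjusted p = 8.54e-06). CHS1 (YNL192W), the repair synthase of cell separation, changed by -0.63 ± 0.06, and CHS2 (YBR038W), the synthase of the primary septum, by -0.52 ± 0.06. The CHS2 signal was dim, below the first quartile on 5 of 6 arrays, and its change was -0.33 after cyclic loess normalization.

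The alternative catalytic subunit of glucan synthase, GSC2 (YGR032W), read 11.79, 11.75 and 11.77 in the controls and 10.99, 11.11 and 11.08 with BSA. That is a log2 change of -0.71 ± 0.05 with little spread in either group (limma adjusted p = 1.71e-05). FKS1 (YLR342W), the catalytic subunit of growing cells, read 10.10, 9.69 and 9.76 in the controls and 9.72, 9.23 and 9.34 with BSA. Replicate 1 was the highest in both groups, and the groups overlapped at BSA replicate 1. FKS1 passed narrowly, with a log2 change of -0.42 ± 0.15 (limma adjusted p = 0.0343). Its change and limma adjusted p were -0.29 and 0.0952 without control replicate 1. They were -0.32 and 0.111 without BSA replicate 2, and -0.37 and 0.104 without BSA replicate 3. The FKS1 call was thus lost in each of these fits, which also leave only 2 arrays in that group. The call was also lost under 3 scalings in limma, with adjusted p-values of 0.0582 for median centring, 0.144 for centring on the median deviation and 0.069 for cyclic loess.

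The GAS family, glucanosyltransferases that elongate glucan, was split. Of its 5 genes, 2 fell (40%) and 2 rose (40%), against 47.1% and 28.3% of all genes. GAS4 (YOL132W), known for its part in building the spore wall, read 6.02, 6.15 and 6.18 in the controls and 7.39, 7.32 and 7.46 with BSA. All 3 control values lay below the first quartile of their arrays, and the rise was 2.41-fold (log2 change 1.27 ± 0.06, limma adjusted p = 3.92e-06). Its partner in spore wall assembly, GAS2 (YLR343W), read 6.22, 6.55 and 6.68 in the controls and 7.56, 6.75 and 7.21 with BSA. The groups of GAS2 nearly touched, and its rise was 0.69 ± 0.20 (limma adjusted p = 0.0156). Of the regulators of sporulation, IME1 was called higher (0.47) and NDT80 lower (-0.61), and their part in the GAS values was not tested.

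Of the GAS genes that serve growing cells, 2 fell and 1 did not pass. GAS3 (YMR215W) changed by -0.78 ± 0.05 (limma adjusted p = 1.28e-05). GAS1 (YMR307W), the main transferase of the lateral wall, changed by -0.38 ± 0.10 (limma adjusted p = 0.0115), a call that centring on the median deviation removed (-0.25, adjusted p = 0.0794). GAS5 (YOL030W) did not pass, at -0.12 with a 95% confidence interval of -0.30 to 0.07.

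All 3 genes of the CRH family, which links chitin to glucan, fell, against 47.1% of all genes. CRH1 (YGR189C) read 11.54, 11.17 and 11.12 in the controls and 9.90, 9.77 and 9.66 with BSA. Its groups were more than 1 log2 unit apart, and it fell by 1.50 ± 0.12, or 2.83-fold (limma adjusted p = 2.37e-05). UTR2 (YEL040W), its relative with the same activity, changed by -0.58 ± 0.07, and CRR1 (YLR213C), the family member of the spore wall, by -0.38 ± 0.10. Both were dim, below the first quartile on all 6 arrays, and the CRR1 call was lost after cyclic loess normalization (-0.21, limma adjusted p = 0.0736).

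The KRE genes serve the synthesis of the shorter glucan that joins mannoproteins to the mesh. KRE6 (YPR159W) read 10.28, 10.13 and 10.17 in the controls and 9.44, 9.46 and 9.47 with BSA, a change of -0.73 ± 0.06 (limma adjusted p = 1.99e-05). Its paralog SKN1 (YGR143W) moved the other way, from 7.25, 7.23 and 7.19 to 8.12, 7.77 and 7.79, a rise of 0.67 ± 0.10 (limma adjusted p = 0.000405). KNH1 (YDL049C) rose by 0.56 ± 0.06 (limma adjusted p = 8.15e-05) at a signal below the first quartile on all 6 arrays. Its homolog KRE9 (YJL174W) did not pass, at 0.22 with a 95% confidence interval of -0.01 to 0.45. KRE9 passed as higher without control replicate 1 (0.30, limma adjusted p = 0.0162), after centring on the median deviation (0.35, adjusted p = 0.0197) and after cyclic loess (0.27, adjusted p = 0.0393). It also passed with array weights (adjusted p = 0.00573).

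Of 5 glucanase genes, 3 fell (60%, against 47.1% of all genes). SCW10 (YMR305C), a wall protein of the glucanase type, read 11.40, 10.99 and 11.05 in the controls and 9.86, 9.79 and 9.61 with BSA. That is a 2.63-fold fall with the groups more than 1 log2 unit apart (log2 change -1.39 ± 0.12, limma adjusted p = 2.92e-05). SCW4 (YGR279C), its paralog, read 10.57, 10.21 and 10.26 in the controls and 10.41, 10.48 and 10.30 with BSA. These values overlapped, and the difference of 0.05 had a 95% confidence interval of -0.19 to 0.29.

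The exoglucanase gene EXG1 (YLR300W) changed by -0.36 ± 0.12 (limma adjusted p = 0.0239). Its limma adjusted p was 0.0673 without BSA replicate 1, 0.076 without BSA replicate 3 and 0.115 after centring on the median deviation. Without control replicate 1 the EXG1 change was -0.22. EXG2 (YDR261C), its GPI-anchored relative, changed by -0.24 ± 0.05, was dim on 5 of 6 arrays, and lost its call after centring on the median deviation (-0.11, limma adjusted p = 0.0567) and after cyclic loess (-0.05, adjusted p = 0.359). BGL2 (YGR282C), an abundant endoglucanase of the wall, did not pass although its groups did not overlap, since the change was only -0.10 (95% confidence interval -0.21 to 0.02). It passed as lower after quantile normalization (-0.20, limma adjusted p = 0.0193).

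**Figure D2:**
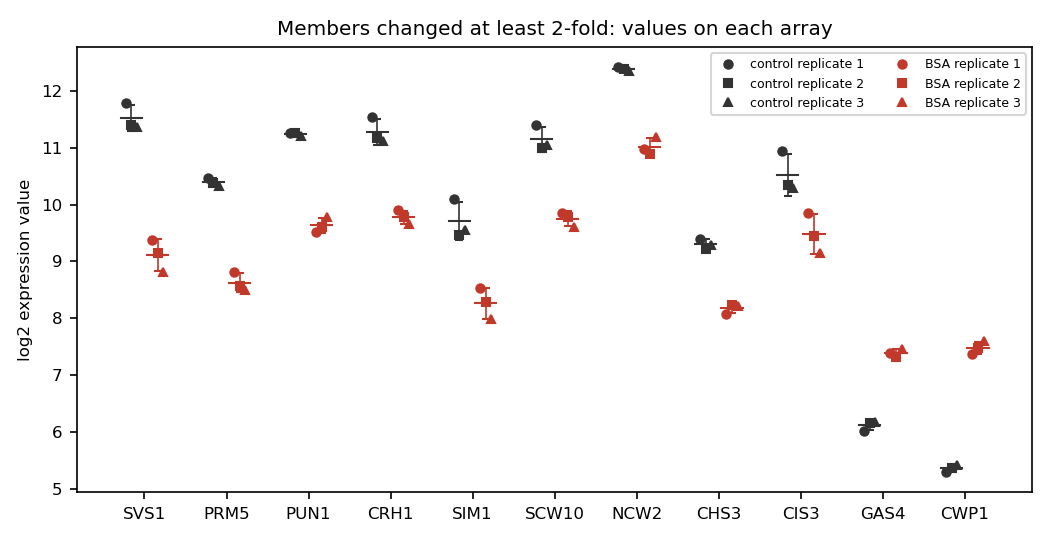
Log2 expression values on each of the 6 arrays for the 11 cell wall genes called and changed at least 2-fold, with group means and SDs as bars (n = 3). In every one of the 11 the control and BSA values are separate, against 79.5% of all genes, and the choice by call and size of change favours this. With BSA 9 genes are lower and 2 higher, against 1.96% and 7.04% of all genes called and changed at least 2-fold.

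Of the 4 PIR genes, 3 fell (75%) and 1 rose (25%), against 47.1% and 28.3% of all genes. CIS3 (YJL158C) read 10.95, 10.34 and 10.28 in the controls and 9.86, 9.44 and 9.14 with BSA. Replicate 1 was the highest array of each group, and CIS3 fell by 1.05 ± 0.22 (limma adjusted p = 0.00323). PIR1 (YKL164C) went from 8.83 ± 0.16 to 8.43 ± 0.05 (mean ± SD, n = 3), and HSP150 (YJL159W), whose product is secreted after heat shock, changed by -0.32 ± 0.05. The HSP150 change was -0.19 with arrays centred on the median deviation. PIR3 (YKL163W) was the one that rose, from 10.71, 10.92 and 10.99 to 11.79, 11.68 and 11.63, or 1.78-fold (log2 change 0.83 ± 0.08, limma adjusted p = 6.93e-05).

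Among 8 genes of GPI-anchored wall proteins, CWP1 (YKL096W) rose, 4 fell and 3 did not pass. These shares, 12.5% higher and 50% lower, stand against 28.3% and 47.1% of all genes. CWP1, a mannoprotein that marks the birth scar, read 5.29, 5.37 and 5.41 in the controls and 7.38, 7.48 and 7.59 with BSA. All 3 control values lay below the first quartile of their arrays and were not shown to be above background, so the size of the rise is uncertain. As measured it was 4.36-fold (log2 change 2.13 ± 0.07, limma adjusted p = 9.89e-07). CWP2 (YKL096W-A), the adjacent gene for another mannoprotein, read 12.02, 11.81 and 11.77 in the controls and 11.53, 11.42 and 11.37 with BSA, a change of -0.43 ± 0.08 (limma adjusted p = 0.00169).

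ECM33 (YBR078W), needed for an intact outer mannoprotein layer, read 11.09, 11.10 and 11.11 in the controls and 10.28, 10.32 and 10.25 with BSA. Its spread was small in both groups, and it fell by 0.81 ± 0.05 (limma adjusted p = 6.35e-06). CCW14 (YLR390W-A), a protein of the inner wall layer, changed by -0.49 ± 0.06 (limma adjusted p = 0.000147). SED1 (YDR077W), the main wall protein of stationary cells, changed by -0.24 ± 0.05, a call that ended after quantile normalization (-0.13, limma adjusted p = 0.0931) and after centring on the median deviation (-0.10, adjusted p = 0.0854).

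TIP1 (YBR067C), a mannoprotein gene induced by cold shock, read 6.82, 8.19 and 8.23 in the controls and 7.11, 6.88 and 7.03 with BSA. Control replicate 1 lay below all BSA arrays, and with it the change of -0.74 ± 0.35 did not pass (limma adjusted p = 0.0849). Without control replicate 1 the change was -1.21 (limma adjusted p = 2.96e-05), and with control replicates 2 and 3 as 1 sample it was -0.51 (adjusted p = 0.236). CCW12 (YLR110C), a stabiliser of new wall at the bud, and PST1 (YDR055W), the paralog of ECM33, did not pass, at -0.19 (95% confidence interval -0.40 to 0.03) and -0.18 (-0.38 to 0.02). Quantile normalization brought CCW12 (limma adjusted p = 0.0192) and PST1 (adjusted p = 0.00991) below the threshold, and leaving out BSA replicate 1 did so for PST1 (-0.27, adjusted p = 0.00439).

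The SUN family, linked to septation and wall structure, held 1 gene that fell and 1 that rose. Each is 25% of the family, against 47.1% lower and 28.3% higher of all genes. SIM1 (YIL123W) read 10.09, 9.47 and 9.56 in the controls and 8.53, 8.29 and 7.98 with BSA. Its lowest control lay well above its highest BSA array, and it fell by 1.44 ± 0.19, or 2.72-fold (limma adjusted p = 0.000267). NCA3 (YJL116C) read 8.21, 9.32 and 9.35 in the controls and 9.56, 9.99 and 10.17 with BSA. Replicate 1 was the lowest array of each group, and the rise was 0.95 ± 0.31 (limma adjusted p = 0.024). Its limma adjusted p was 0.0655 without BSA replicate 2 (0.90) and 0.0834 without BSA replicate 3 (0.81), and without control replicate 1 the NCA3 rise was 0.57 (adjusted p = 0.0179). SUN4 (YNL066W) and UTH1 (YKR042W) did not pass, at -0.14 (95% confidence interval -0.34 to 0.05) and 0.06 (-0.21 to 0.34), and without control replicate 1 SUN4 passed as lower (-0.21, limma adjusted p = 0.0435).

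Of the sensors, SLG1 (YOR008C) showed no detectable change and MID2 (YLR332W) passed narrowly as higher. SLG1 read 7.91, 7.95 and 7.99 in the controls and 8.04, 7.96 and 7.83 with BSA, a difference of -0.01 with a 95% confidence interval of -0.16 to 0.14. MID2 read 9.31, 9.35 and 9.30 in the controls and 10.15, 9.52 and 9.52 with BSA. BSA replicate 1 was far above the other two, and the rise of 0.41 ± 0.16 (limma adjusted p = 0.0481) was 0.20 without it (adjusted p = 0.00704). The MID2 call ended on leaving out any control array (limma adjusted p = 0.0854 to 0.0983), on taking control replicates 2 and 3 as 1 sample (adjusted p = 0.0921) and under quantile scaling (adjusted p = 0.116).

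All 4 of the remaining surface protein genes fell by at least 2-fold, against 1.96% of all genes. SVS1, PRM5 and PUN1 gave the largest decreases among the 44. SVS1 (YPL163C), first known for its part in resistance to vanadate, read 11.78, 11.41 and 11.37 in the controls and 9.38, 9.15 and 8.81 with BSA, which is 5.30-fold lower. PRM5 (YIL117C), a membrane protein gene induced by pheromone and wall stress, read 10.47, 10.39 and 10.33 in the controls and 8.82, 8.57 and 8.50 with BSA, which is 3.40-fold lower. In both genes the groups were more than 1 log2 unit apart. PUN1 (YLR414C), a plasma membrane protein gene induced by nitrogen stress, read 11.25, 11.25 and 11.20 in the controls and 9.51, 9.61 and 9.78 with BSA, which is 3.04-fold lower. NCW2 (YLR194C), which encodes a GPI-anchored wall protein, read 12.42, 12.38 and 12.35 in the controls and 10.98, 10.89 and 11.18 with BSA. It fell by 1.37 ± 0.08, or 2.58-fold (limma adjusted p = 7.03e-06). These values describe genes that had been picked with such results in view, and they are no independent evidence of a direction.

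Related or neighbouring genes were set against each other within each array, so that the difference does not depend on centring. For 11 pairs, the log2 difference of the first gene minus the second was compared between the groups. In 3 pairs the genes were both called and moved in opposite directions: KRE6 and SKN1, PIR1 and PIR3, and CWP1 and CWP2. The difference of KRE6 minus SKN1 changed by -1.40 ± 0.13 (SE, for pairs without moderation) with BSA. For PIR1 minus PIR3, neighbours on chromosome XI, the change was -1.23 ± 0.04, and for CWP1 minus CWP2, also neighbours there, it was 2.55 ± 0.16.

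In the other pairs the measured changes of the 2 genes often differed in size, and SCW4, SUN4, UTH1, PST1 and KRE9 were not called themselves. SCW4 minus SCW10 was -0.82, -0.78 and -0.80 in the controls and 0.55, 0.69 and 0.68 with BSA, a change of 1.44 ± 0.05. The order of these 2 signals was thus turned on every array, although signals of different probe sets do not compare as amounts. SUN4 minus SIM1 changed by 1.30 ± 0.28, CRH1 minus UTR2 by -0.91 ± 0.13 and UTH1 minus NCA3 by -0.88 ± 0.28. For HSP150 minus CIS3, the third pair of neighbours, the change was 0.72 ± 0.26, for PST1 minus ECM33 0.64 ± 0.11 and for KRE9 minus KNH1 -0.34 ± 0.09. FKS1 minus GSC2 changed by 0.29 ± 0.22 and its groups overlapped. In the other 10 pairs the groups did not overlap, and the exact two-sided permutation test gave p = 0.1, the smallest that 3 arrays against 3 allow (0.11 after Benjamini-Hochberg adjustment over 11 pairs). FKS1 minus GSC2 had an exact permutation p = 0.3. No pair could therefore pass 0.05. Single genes had fully separate groups in 79.5% of all genes, and the share over other pairs of genes was not computed.

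**Figure D3:**
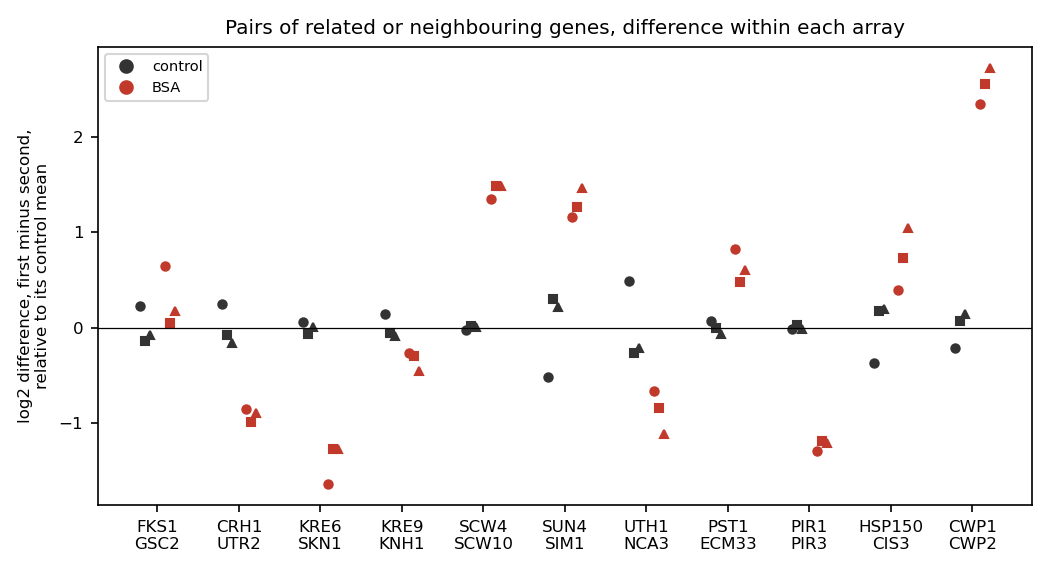
Log2 difference between the 2 genes of each pair (upper name minus lower name) on each array, relative to the mean of the 3 control arrays. Circles, squares and triangles are replicates 1, 2 and 3, and the SCW4 and SCW10, PIR1 and PIR3, KRE6 and SKN1, SUN4 and SIM1, and CWP1 and CWP2 pairs show changes of over 1 log2 unit.

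Control replicate 1 differed from the other controls more in wall genes than over all genes. Across the 44 genes the SD of the log2 difference was 0.361 between control replicates 1 and 2 and 0.372 between 1 and 3, against 0.194 and 0.198 over all genes. Between control replicates 2 and 3 it was 0.0504, against 0.0567 over all genes. In 9 of the 44 genes control replicate 1 lay at least 0.3 above the mean of the other 2 controls, against 4.81% of all genes. These 9 were CIS3 (0.63), SIM1 (0.58), EXG1 (0.41), CRH1 (0.40), SVS1 (0.39), SCW10 (0.38), FKS1 (0.37), SCW4 (0.34) and GAS1 (0.34). It lay at least 0.3 below in 4 genes, against 3.38% of all genes: TIP1 (-1.39), NCA3 (-1.12), GAS2 (-0.39) and UTH1 (-0.39).

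A like pattern was present within the BSA group. BSA replicate 1 was the highest of its group in 24 of the 44 genes (54.5%), against 31.4% of all genes, and control replicate 1 in 28 (63.6%), against 40.9%. CIS3 lay 0.56 above the mean of BSA replicates 2 and 3, FKS1 0.43, SVS1 0.40 and SIM1 0.39, while NCA3 lay 0.52 below. CRH1 (0.18), GAS1 (0.19), SCW10 (0.16) and UTH1 (-0.21) deviated less in BSA replicate 1, with the same sign as in control replicate 1. GAS2 and TIP1, by contrast, were low in control replicate 1 and lay 0.58 and 0.15 above in BSA replicate 1. EXG1 (-0.07) and SCW4 (0.02), high in control replicate 1, hardly deviated there. Across the 44 genes, deviations of control replicate 1 and BSA replicate 1 from their group means had a Pearson r of 0.36, against 0.10 over all genes. The same value for control replicate 1 and BSA replicate 3 was -0.56, against -0.07. These coefficients describe genes measured on shared arrays, which are not independent. The deviations of a gene within a group also sum to 0, which ties the coefficients to each other. Without control replicate 1, 27 wall genes fell and 8 rose.

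**Figure D4:**
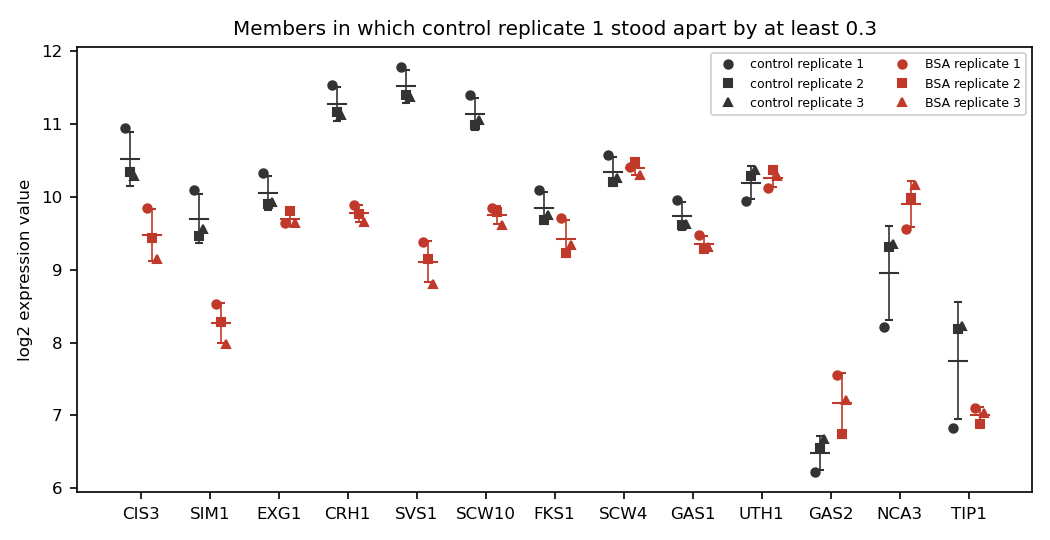
Log2 expression values on each array for the 13 cell wall genes in which control replicate 1 stood at least 0.3 from the mean of control replicates 2 and 3, with group means and SDs as bars (n = 3). Control replicate 1 (black circles) is the top control in the first 9 genes and the bottom control in the last 4, and in CIS3, SIM1, SVS1 and FKS1 the red circle of BSA replicate 1 is the top BSA array too.

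Signals of the genes that rose were often dim. Of 8 wall genes called higher, 4 (GAS2, GAS4, KNH1 and CWP1) lay below the first quartile on all 3 control arrays, against 22.7% of all genes called higher. Among the 26 called lower this held for 2, UTR2 and CRR1, against 18.1% of all genes called lower. Left without the dimmest 25% of genes, 4 wall genes were called higher. By mean signal GAS2, GAS4, KNH1 and CWP1 stood at percentiles 23.4, 21.2, 10.9 and 13.6, so this filter removed them before the test and fixed that drop. The part of probe background in these values was not tested.

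Beyond the 44 genes, 4 further lists of wall genes were counted, with no test of a list. The wall integrity pathway, of sensors, Rho1 regulators, kinases, phosphatases and transcription factors, had 25 measured genes, of which 13 fell (52.0%) and 9 rose (36.0%); their median change was -0.26 (log2), against 47.1% lower, 28.3% higher and a median of -0.13 for all genes. Sensors outside the 44 moved both ways. WSC2 read 8.67, 8.65 and 8.70 in the controls and 7.53, 7.81 and 7.67 with BSA, and WSC4 read 6.40, 6.62 and 6.67 in the controls and 8.70, 8.18 and 8.43 with BSA. These are a fall by 1.01 ± 0.07 for WSC2 (limma adjusted p = 1.88e-05) and a rise by 1.87 ± 0.13 for WSC4 (adjusted p = 1.61e-05). WSC3 (-0.81 ± 0.09) and MTL1 (1.12 ± 0.18), a relative of MID2, complete the sensors and were named after their values were seen.

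Phosphatases that act on Slt2 were split too. SDP1 rose by 1.32 ± 0.07 and MSG5 by 0.99 ± 0.08, while PTP2 changed by -0.62 ± 0.05. BEM2, which inactivates Rho1, changed by -0.51 ± 0.05. The 3 genes of the list that did not pass were PTP3 (0.20, 95% confidence interval 0.01 to 0.39), ROM2 (0.07, -0.06 to 0.20) and RLM1 (-0.03, -0.20 to 0.14), named after their values were seen. PTP3 passed as higher under all 4 scalings and ROM2 with arrays centred on the median deviation (limma adjusted p = 0.0184), while RLM1 passed as lower with array weights (adjusted p = 0.0312).

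Of 19 helpers of glucan and chitin synthesis, 12 fell (63.2%, against 47.1% of all genes) and 3 rose (15.8%, against 28.3%), with a median of -0.39. DFG5 and DCW1, which are thought to join GPI proteins to the wall, changed by -1.52 ± 0.09 and -0.74 ± 0.05. CHS6, which takes part in the export of the Chs3 chitin synthase to the cell surface, changed by -1.09 ± 0.07 (limma adjusted p = 1.22e-05). Higher were BIG1 (0.71 ± 0.08), which serves glucan synthesis from the ER, FKS3 (0.46 ± 0.11), a relative of FKS1 known from spores, and SKT5 (0.12 ± 0.04), the activator of Chs3. The SKT5 call (limma adjusted p = 0.0333) was lost under 10 of 19 alternatives: without any 1 control, without BSA replicate 2 or 3, with control replicates 2 and 3 as 1 sample (adjusted p = 0.0927), with the replicate block (adjusted p = 0.065), with an intensity trend (adjusted p = 0.0548) and under both filters on dim genes.

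Of 8 measured genes of daughter cell separation, limma called 6 higher (75.0%, against 28.3% of all genes) and 0 lower (against 47.1%), their median being 0.49. Without the dimmest 25% of genes, 1 was called higher (AMN1), since that filter removed DSE1, DSE2, DSE3, DSE4 and SCW11 before the test. At a raw limma p under 0.05 the lower count stayed at 0. DSE2 rose by 0.92 ± 0.11 and DSE1 by 0.62 ± 0.08, both specific to daughter cells and below the first quartile on 3 and 4 of 6 arrays, and AMN1, which acts at the end of mitosis, by 0.60 ± 0.06. The chitinase gene CTS1 (0.02, 95% confidence interval -0.21 to 0.24) and EGT2 (0.11, -0.11 to 0.32) did not pass and were named after their values were seen. EGT2 passed as higher after cyclic loess (limma adjusted p = 0.0469). In the spore wall list limma called 6 of 9 genes lower (66.7%, against 47.1% of all genes) and 0 higher (against 28.3%), their median being -0.26. At a raw limma p under 0.05 the higher count stayed at 0. This list leaves out other genes tied to spores above, so its counts hold for the 9 listed genes only. Among those left out, GAS4 (1.27), GAS2 (0.69) and FKS3 (0.46) were called higher and CRR1 (-0.38) lower. CTS2 changed by -0.55 ± 0.05, SPS22 by -0.34 ± 0.05 and DIT1 by -0.26 ± 0.05, all at signals below the first quartile of every array, where GAS4 and GAS2 had also stood in the controls. After cyclic loess 3 of the 9 spore wall genes fell and DIT1 did not pass (-0.10, limma adjusted p = 0.0683). With the median deviation of each array set to 0, 4 of the 9 fell, SPS22 by 0.20 and DIT1 by 0.13, and with control replicates 2 and 3 as 1 sample 4 fell.

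**Figure D5:**
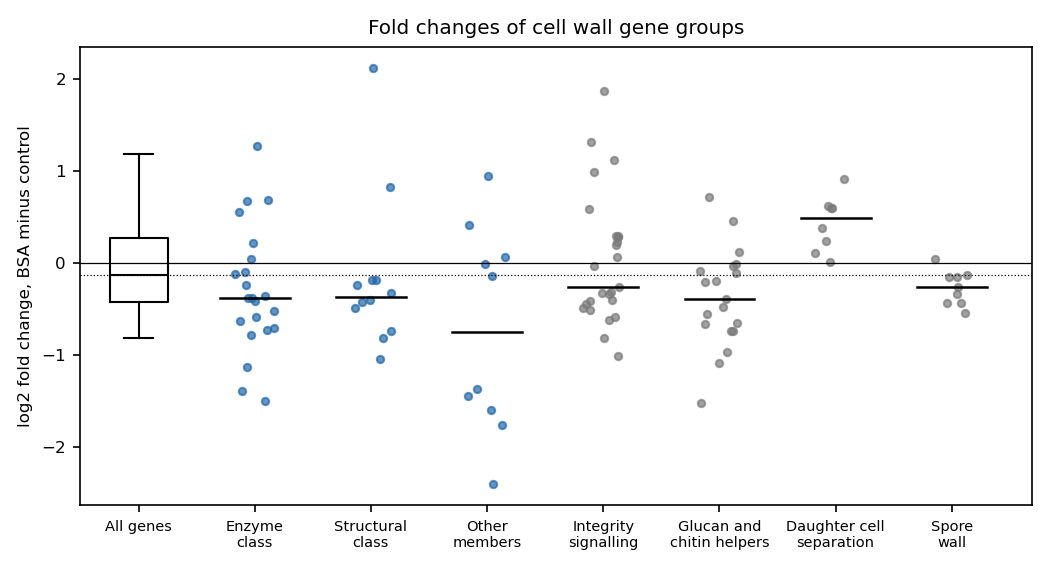
Log2 fold changes, BSA minus control, of all genes (box with quartiles, whiskers from the 5th to the 95th percentile), of the 3 classes of cell wall members and of 4 further wall lists, each point a gene and each bar the median. The medians of the enzyme class (-0.38), the structural class (-0.36) and the helper list (-0.39) lie below the dotted median of all genes (-0.13), and that of daughter cell separation (0.49) lies above it.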

How the data were processed

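Total RNA of 6 cultures was measured on Affymetrix yeast arrays, 1 per culture by the labels. What the authors deposited for each probe set is a log2 value. The submitters' processing notes name PLIER, a summary method for probes, and R 2.10.1. How background and array differences were treated is not given in the sources used here, and base 2 was read from the range of the values. Of 5705 probe sets, the one with the highest mean was kept per gene, which left 5657 genes. Symbols came from the reference gene table of assembly R64, which held 5646 of these genes. Groups came from the labels.

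BSA and control were compared gene by gene with limma 3.58.1 in R 4.3.3 (lmFit, eBayes), and a Benjamini-Hochberg adjusted p under 0.05 over all genes was called higher or lower. SEs of single genes are moderated. Pairs of genes were compared by an exact permutation test, and their SEs come from the pooled variance of the 2 groups, without moderation. The fit was tested on simulated data. Members, classes, lists and alternatives were chosen with earlier results of these data known. All 44 members could be named, with values per array for those changed at least 2-fold and some others, and up to 3 genes per further list and direction with the smallest p. The alternatives were the replicate number as a block, other variance priors, array weights, 4 scalings, filters on dim genes, other handling of probe sets, leaving out each array, control replicates 2 and 3 as 1 sample, and stricter thresholds.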

Additional observations from a re-analysis of the deposited data

How the results depend on the processing

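Of the 34 called wall genes, 26 kept their direction and call under all 19 alternatives that kept them and left the threshold as it was. The other 8 were FKS1, GAS1, CRR1, EXG1, EXG2, SED1, NCA3 and MID2, and of the 10 not called, 6 passed under at least 1 alternative. When each array was left out in turn, 24 to 27 wall genes fell and 7 to 8 rose, 12 to 14 and 4 to 5 in the enzyme class, 7 to 8 and 2 in the structural class, and 3912 to 4277 of all genes were called. Without the dimmest 25% of genes, 4 wall genes rose, 1 of them in the enzyme and 1 in the structural class. GAS2, GAS4, KNH1 and CWP1 were removed by that filter before the test. Without the dimmer 50%, 3 rose, 0 and 1 in these classes, and 2233 of all genes were called, 1045 higher and 1188 lower; fewer genes are tested there by construction. At an adjusted p under 0.01, 5 wall genes rose. With a change of at least 2-fold required, 9 wall genes fell and 2 rose, 3 and 1 in the enzyme class and 1 and 1 in the structural class, against 111 and 398 of all genes (509 together). Over all genes, deviations of arrays with the same replicate number correlated at 0.10, 0.02 and 0.04. Across the 44 wall genes these values were 0.36, -0.12 and 0.55 for numbers 1, 2 and 3. Control replicate 2 and BSA replicate 3, of different numbers, also gave 0.55 across the wall genes. Whether the replicate numbers pair the arrays was not tested. With the replicate number as a block, 27 wall genes fell and 9 rose, KRE9 (adjusted p = 0.0092) and CCW12 (adjusted p = 0.0306) being added, and 4266 of all genes were called. With array weights, KRE9, TIP1, CCW12, PST1 and SUN4 passed.

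Signs turned only in genes that were not called, with limma adjusted p above 0.1 after the turn. With arrays centred on the median deviation these were GAS5 (0.014), BGL2 (0.036), SLG1 (0.13) and RLM1 (0.10). After cyclic loess they were SUN4 (0.044), SLG1 (0.079) and RLM1 (0.045), and with median centring SLG1 (0.035) and RLM1 (0.013). With control replicates 2 and 3 as 1 sample they were SCW4 (-0.0074) and SLG1 (0.0031). With array weights they were UTH1 (-0.0083), CTS1 (-0.075) and EGT2 (-0.029), and after quantile normalization CTS1 (-0.0088). With each array left out in turn, the log2 fold change ran from -0.020 to 0.16 for SCW4, from -0.065 to 0.15 for UTH1, from -0.053 to 0.050 for SLG1, from -0.091 to 0.0075 for RLM1 and from -0.097 to 0.097 for CTS1. The causes were not tested.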
